A study of Mus musculus with 19 samples.

Results

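The genes described here are 10 mouse clade A serpins, a family of mostly secreted proteins of which many block serine proteases: Serpina3m, Serpina3n, Serpina3k, Serpina5, Serpina4-ps1, Serpina6, Serpina10, Serpina11, Serpina1d and Serpina7. They were chosen by their levels in fetal livers: several were far lower in livers that express a fibrolamellar carcinoma fusion, and the others serve for comparison. All 10 are in the embryo table of 13549 genes, and 9 of them, all but Serpina5, are in the tumour tables of 17606 gene IDs. Serpina5 was not analysed in tumours. The family name does not describe every member: Serpina6 and Serpina7 carry hormones and are not known to inhibit proteases, and Serpina4-ps1 is annotated as an unprocessed pseudogene.

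RNA was sequenced in 2 experiments. The first used livers of E18.5 mouse embryos, 5 of the genotype labelled control and 4 labelled DNAJ1B-PKA_Overexpression, called fusion here and numbered 6 to 9 as in their labels. In fusion embryos the Rosa26 locus holds a cDNA of the DNAJB1-PRKACA fusion and GFP behind a stop cassette (LSL), which Alb-Cre, Cre recombinase driven by the albumin promoter, removes in liver from mid-gestation. Cells in which that promoter was never active, in themselves or in their precursors, are thus not targeted. The labels do not say whether control embryos carry Cre or the cassette alone. The second used FL8, a single mouse line, which was implanted subcutaneously in capsules of gelatin in NSG mice, a strain without lymphocytes of its own. Mice were randomized once tumours averaged 75 mm3, and 5 tumours came from mice given the methocel vehicle (labelled Control Carrier) and 5 from mice given the CDK4 and CDK6 inhibitor palbociclib at a dose of 75 mg/kg by oral gavage on 3 days followed by 4 days without drug. No strain is given for the embryos, and nothing says that replicates came from separate litters or mice, so p-values measure the spread between these samples, which may be technical.

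A serpin presents a flexible reactive centre loop that a target protease cuts. The cut locks protease and inhibitor together, and the residues of the loop decide which protease is caught. The liver is the main source of the plasma serpins, several of which rise in inflammation. In the mouse, single human genes such as those of alpha-1-antitrypsin (SERPINA1) and alpha-1-antichymotrypsin (SERPINA3) are each represented by a group of similar copies lying side by side.

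Levels are in CPM (counts scaled to a library total of 1000000), after TMM scaling in embryos and as deposited in tumours. The embryo libraries held 7.66 to 23.1 M counts in controls and 13.5 to 45.6 M in fusion livers, with M for 1000000. They formed 2 library sets by the share of counts on ribosomal protein genes: control 1, control 2, fusion 8 and fusion 9 at 7.81% to 8.46%, and the other 5 libraries at 5.42% to 6.76%. Sex, read from Xist, coincides with the sets in controls, since control 1 and 2 were female and control 3 to 5 male, and among fusion livers only fusion 9 was male. Fusion 9 was the fusion liver nearest to the controls for the 7 members that were lower, so the strongest differences are also given without it. Of the tumours, mitochondrial genes made up 46.6% of vehicle 1, while they made up 1.24% to 6.47% of the other 9, and vehicle 5 had only 2.96 M reads, against 21.1 to 43.1 M in the other 9. The 8 hepatocyte markers were all present in both experiments, and their summed level overlapped between the embryo groups (154593 to 185149 CPM in control and 166722 to 198528 CPM in fusion livers). The sum can hide opposite moves of single markers, so it does not show that hepatocyte content was alike. Mean Afp was 42296 CPM in control and 76590 CPM in fusion livers, without overlap between the groups (edgeR adjusted p = 0.0178). Mean Ttr was 4492 and 3284 CPM (edgeR adjusted p = 0.115). Its groups nearly touched, at 3631 CPM in control 1 and 3630 CPM in fusion 9, so a fall of Ttr is uncertain. Of 8 erythroid markers only 3 are in the embryo table, at a summed 2409 to 4047 CPM in control and 2561 to 3365 CPM in fusion livers. The 5 bile duct markers summed to 49.9 to 73.8 CPM in control and 11.4 to 41.4 CPM in fusion livers, and the 6 macrophage markers to 594 to 708 and 501 to 553 CPM. Their part in the results below was not tested. In bulk tissue fewer cells of a type and less RNA per cell cannot be told apart. The level of Prkaca, whose sequence is part of the fusion, was 36.3 to 50.5 CPM in control and 52.0 to 114 CPM in fusion livers.

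In the annotation used here (GENCODE M21, build GRCm38, also called mm10), 9 of the 10 members lie in a single cluster at chr12:103614786-104414329. Serpina7 lies apart, at chrX:139079257-139085236 on the minus strand. The cluster spans 799.5 kb and holds 28 serpin genes or pseudogenes and no other protein-coding gene, and 18 of the 28 are in the embryo table. Serpina10, Serpina6, Serpina1d and Serpina11 lie in its first part on the minus strand. Serpina4-ps1, Serpina5, Serpina3k, Serpina3m and Serpina3n follow on the plus strand.

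Across the embryo livers 7 of the 10 members were lower in every fusion library than in any control library. These were Serpina3m, Serpina3n, Serpina3k, Serpina5, Serpina4-ps1, Serpina10 and Serpina11. Over all 13316 genes tested, 8.15% were lower in this way and 8.37% higher, but since this contrast chose the members, nothing is read from their share. All 10 members passed the filter on low counts. The median of the members' fitted log2 differences (fusion minus control) was -2.42, against -0.01 over all genes, and this too is a description of the choice. The size of the difference split the members sharply: 5 were lower by 11.4 to 12.7 fold, while the other 5 differed by at most 2.26 fold.

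**Figure D1:**
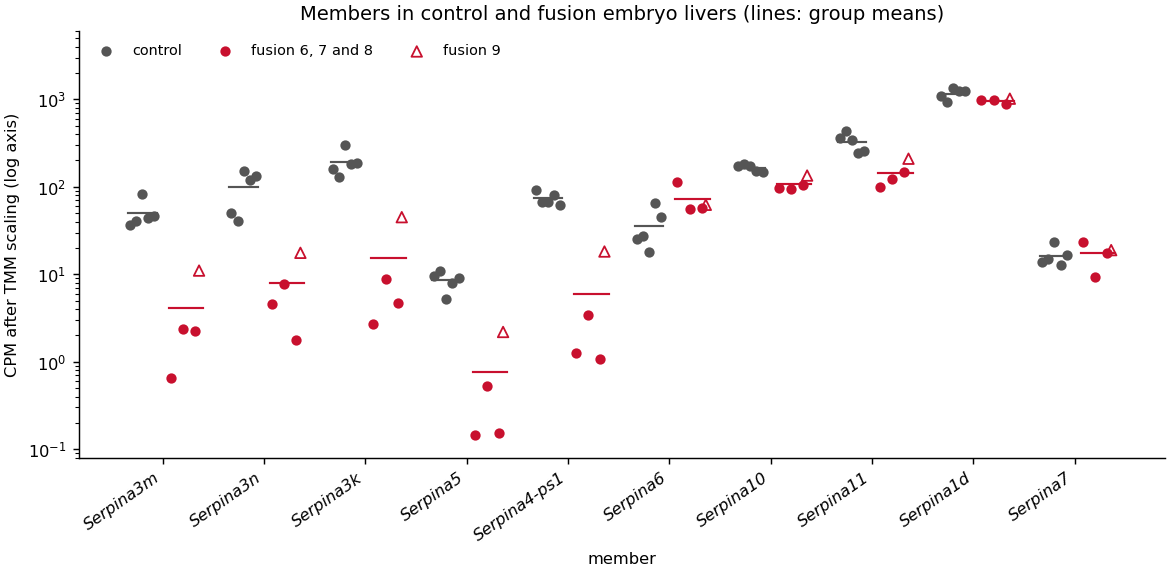
Level of each member in every embryo liver, as CPM after TMM scaling on a log axis, with control livers in grey, fusion 6 to 8 as filled red points, fusion 9 as an open triangle and lines at the group means. For the first 5 members every fusion liver lies below every control, and fusion 9 is the fusion liver nearest to the controls; Serpina6, Serpina1d and Serpina7 overlap.

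The Serpina3 genes come first. They are the mouse counterparts of alpha-1-antichymotrypsin. Serpina3n, a secreted acute-phase inhibitor that acts on granzyme B and neutrophil proteases, was at 50.5, 41.0, 153, 121 and 135 CPM in control 1 to 5. It was at 4.57, 7.65, 1.76 and 17.6 CPM in fusion 6 to 9. Every fusion liver lay below the lowest control, and control 3 to 5 were well above control 1 and 2. The means were 100.0 ± 51.0 (SD, n = 5) and 7.89 ± 6.90 CPM (SD, n = 4), 12.7-fold lower in fusion livers. Control 3 to 5 averaged 136 CPM, 2.98 times the 45.8 CPM of control 1 and 2, and in controls sex and library set cannot be told apart.

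Serpina3k, described as a kallikrein-binding serpin, was at 158, 129, 301, 183 and 187 CPM in control 1 to 5 and at 2.67, 8.78, 4.75 and 45.0 CPM in fusion 6 to 9. Control 3 was the highest control and fusion 9 the highest fusion liver, still well under control 2. The means were 192 ± 65.6 (SD, n = 5) and 15.3 ± 19.9 CPM (SD, n = 4), 12.5-fold lower. Serpina3m, a close relative of Serpina3k, was at 36.5, 40.6, 82.5, 43.5 and 46.2 CPM in control 1 to 5 and at 0.646, 2.37, 2.22 and 11.02 CPM in fusion 6 to 9. It had the same high control and the same high fusion liver as Serpina3k. The means were 49.9 ± 18.6 (SD, n = 5) and 4.06 ± 4.70 CPM (SD, n = 4), 12.3-fold lower. The summed level of the 3 genes was 342 ± 128 CPM in the controls (SD, n = 5) and 27.3 ± 31.3 CPM in the fusion group (SD, n = 4). In fusion 6 and 8, the sum was 7.88 and 8.74 CPM.

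Serpina3n made up 19.5% to 36.6% of this sum in control livers and 20.2% to 57.9% in fusion livers, and Serpina3k 50.9% to 64.5% and 33.9% to 61.1%. The shares of both genes overlapped between the groups. Per kilobase of exon, Serpina3k had the highest mean of the trio in both groups, at 93.3 CPM per kb in control and 7.43 in fusion livers. Serpina3n followed at 48.5 and 3.82, and Serpina3m at 29.0 and 2.36 CPM per kb.

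The trio is similar enough in sequence that the counting of reads matters for the values of each gene. Over 1251 aligned coding bases, 245 (19.6%) differ between at least a pair of the 3 genes. Serpina3m and Serpina3k are 91.6% identical, Serpina3m and Serpina3n 85.2%, and Serpina3n and Serpina3k 82.9%, while all other pairs of the 9 protein-coding members are 45.7% to 59.3% identical. Windows of 50 bases that also occur unchanged in another gene make up 19.1% of the Serpina3m transcript, 14.0% of that of Serpina3k and 6.90% of that of Serpina3n. With 150 bases these shares are 0.331%, 0.262% and 0. The annotated span of Serpina3m also starts at the first base of Serpina3k and contains it. The sources used here do not say how such reads were counted, so the split within the trio is less certain than its sum.

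The stretch of 60 coding bases in which the trio differs most is shown because it encodes the reactive centre loop, the part of a serpin that meets its protease. It holds 26 differing positions, against a mean of 11.8 per 60 bases. It lies in the last of 5 exons on the plus strand of GRCm38: chr12:104345267-104345326 in Serpina3k, chr12:104393767-104393826 in Serpina3m and chr12:104413446-104413505 in Serpina3n. Capitals mark positions at which the 3 genes are not all the same.
Serpina3k: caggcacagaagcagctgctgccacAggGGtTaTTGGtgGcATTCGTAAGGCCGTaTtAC
Serpina3m: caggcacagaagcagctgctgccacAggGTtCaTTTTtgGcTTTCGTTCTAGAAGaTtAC
Serpina3n: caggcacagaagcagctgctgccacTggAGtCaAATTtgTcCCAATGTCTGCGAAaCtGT
The opening bases of the stretch are identical in the 3 genes. The differences crowd into the part that follows, so reads across this part can be assigned to a gene. The fold differences of the 3 genes between the groups, given above, lay between 12.3 and 12.7.

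Serpina5, the protein C inhibitor, blocks activated protein C and several trypsin-like proteases. It was at 9.57, 11.01, 5.27, 8.01 and 9.12 CPM in control 1 to 5 and at 0.146, 0.534, 0.153 and 2.19 CPM in fusion 6 to 9. The lowest library held 2 counts and the highest 209, and fusion 6 to 8 were near the floor of 3 counts, which is 0.0658 to 0.222 CPM in those libraries. The means were 8.60 ± 2.15 (SD, n = 5) and 0.756 ± 0.973 CPM (SD, n = 4), 11.4-fold lower. It shares no window of 50 bases with another gene. Control 3, the highest control for the Serpina3 trio, was the lowest control for Serpina5.

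Serpina4-ps1 is a pseudogene related to the human kallistatin gene and lies next to Serpina5. It was at 91.2, 67.1, 67.5, 80.6 and 61.9 CPM in control 1 to 5 and at 1.27, 3.44, 1.07 and 18.2 CPM in fusion 6 to 9. Its controls were the most alike of the 5 strongly reduced members, with a coefficient of variation of 16.3%, against 25.0% to 51.0% in the other 4. The means were 73.6 ± 11.996 (SD, n = 5) and 6.00 ± 8.21 CPM (SD, n = 4), 12.3-fold lower. Per kilobase of exon its control level, 57.2 CPM per kb, lay between those of Serpina3k and Serpina3n and above the 3.98 CPM per kb of Serpina5.

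The fitted log2 differences of these 5 members lay between -3.71 and -3.67, and they held ranks 2 to 6 from the lowest among 13316 genes. They were further below 0 without fusion 9 and differed between the library sets. Without fusion 9 they were -4.99 for Serpina3m, -4.41 for Serpina3n, -5.18 for Serpina3k, -5.07 for Serpina5 and -5.29 for Serpina4-ps1. Within the set of control 1, control 2, fusion 8 and fusion 9 they were -2.50, -2.21, -2.51, -3.05 and -3.00 in the same order. Within the set of control 3 to 5 and fusion 6 and 7 they were -5.58, -4.54, -5.44, -4.83 and -5.11. In that set all controls were male and both fusion livers female, so genotype and sex cannot be told apart there. The other set holds fusion 9, so the part of the set and that of this liver were not separated. Fusion 8, also in that set, was at 2.22, 1.76, 4.75, 0.153 and 1.07 CPM in the same order. The means of control 1 and 2 were 38.5, 45.8, 144, 10.3 and 79.1 CPM. On the log2 scale fusion 9 moved 37.3% to 52.2% as far from the control mean as the other fusion livers did on average over these 5 members. It was 39.2% for Serpina10 and 44.1% for Serpina11.

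Among the inhibitors with smaller differences, Serpina11 differed most. Its function is little known. It was at 366, 432, 339, 246 and 256 CPM in control 1 to 5 and at 100.2, 123, 148 and 209 CPM in fusion 6 to 9. The gap between the groups was narrow, between 209 and 246 CPM. The means were 328 ± 77.8 (SD, n = 5) and 145 ± 47.2 CPM (SD, n = 4), and the fitted log2 difference was -1.18. Its transcript shares 44.4% of its windows of 50 bases with an overlapping gene model, so its count is uncertain.

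Serpina10, the protein Z-dependent inhibitor of coagulation factor Xa, was at 172, 183, 171, 151 and 149 CPM in control 1 to 5. It was at 95.7, 95.0, 104 and 134 CPM in fusion 6 to 9. Again fusion 9 was the closest to the controls. The means were 165 ± 14.6 (SD, n = 5) and 107 ± 18.6 CPM (SD, n = 4), and the fitted log2 difference was -0.62. Proz, which encodes protein Z, the cofactor that Serpina10 needs, is no member. It fell from 104.7 ± 9.51 CPM in controls (SD, n = 5) to 53.7 ± 10.5 CPM in fusion livers (SD, n = 4), and its log2 fold change was -0.96 (edgeR adjusted p = 0.00254), with no overlap between the groups.

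Serpina1d, a mouse copy of alpha-1-antitrypsin, the main plasma inhibitor of neutrophil elastase, was the most abundant member. It was at 1085, 941, 1339, 1231 and 1230 CPM in control 1 to 5 and at 986, 981, 876 and 1017 CPM in fusion 6 to 9. The groups overlapped, because control 2 lay below fusion 6, 7 and 9. The means were 1165 ± 155 (SD, n = 5) and 965 ± 61.4 CPM (SD, n = 4), and the fitted log2 difference was -0.27. It shares 50.9% of its windows of 50 bases with the other alpha-1-antitrypsin copies and related models, so the sum of Serpina1a to Serpina1e is the safer measure. That sum was 16050 ± 2884 CPM in controls (SD, n = 5) and 9860 ± 1943 CPM in the fusion group (SD, n = 4), 1.63-fold lower. The ranges overlapped, from 12189 to 19647 CPM and from 8352 to 12672 CPM.

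Within that sum the copies did not keep their proportions. Serpina1e made up 44.8% to 55.1% in the controls and 26.3% to 39.2% in the fusion group, while Serpina1d made up 6.82% to 7.72% and 8.03% to 11.7%. Serpina1b made up 18.6% to 23.8% and 27.3% to 34.4%. None of these 3 shares overlapped between the groups, and the share of Serpina1e was the lower one in fusion livers. The annotated span of Serpina1b contains that of Serpina1d on the same strand. The split among the copies thus depends on how reads were counted and is less certain than the sum. The own levels of Serpina1b and Serpina1d differed by -0.10 and -0.27 on the log2 scale, against -1.33 for Serpina1e.

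The remaining members are hormone carriers. Serpina6, corticosteroid-binding globulin, was at 25.1, 27.5, 18.2, 65.0 and 44.6 CPM in control 1 to 5. It was at 113, 55.6, 57.2 and 62.3 CPM in fusion 6 to 9. Its mean was higher in fusion livers, but control 4 lay above fusion 7, 8 and 9. The means were 36.1 ± 18.9 (SD, n = 5) and 72.1 ± 27.6 CPM (SD, n = 4), and the fitted log2 difference was 1.00, or 0.70 without fusion 6. No other member had a fitted difference as far above 0.

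Serpina7, thyroxine-binding globulin, was at 13.7, 14.9, 23.1, 12.7 and 16.7 CPM in control 1 to 5 and at 23.6, 9.31, 17.4 and 18.9 CPM in fusion 6 to 9. The highest and the lowest of the 9 values both belonged to fusion livers. The means were 16.2 ± 4.12 (SD, n = 5) and 17.3 ± 5.95 CPM (SD, n = 4), and the fitted log2 difference was 0.10 whose sign changed without fusion 6, to -0.09. It is also the member outside the chromosome 12 cluster.

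**Figure D2:**
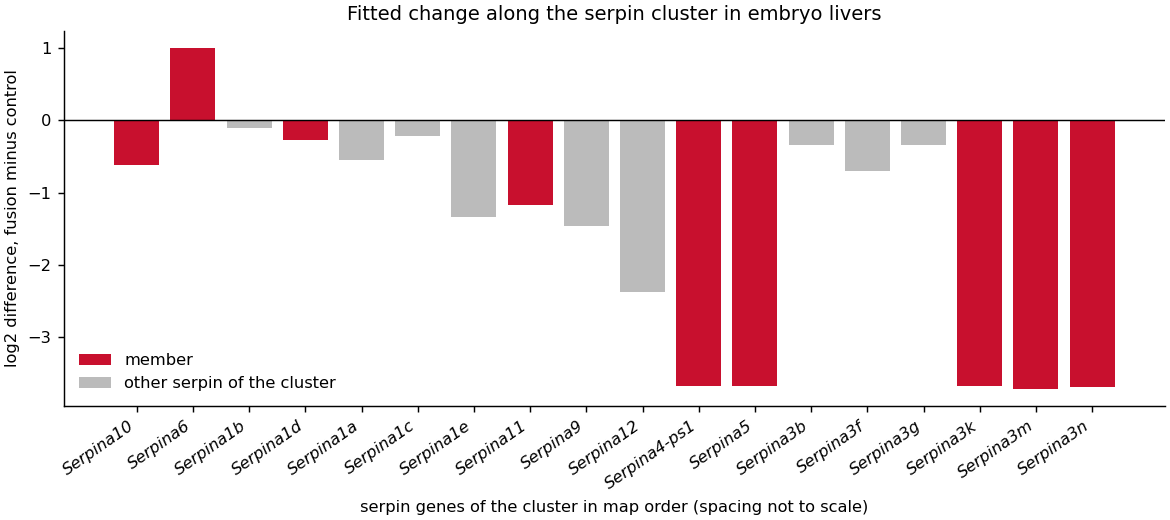
Fitted log2 difference (fusion minus control, edgeR) of the 18 serpin genes of the chromosome 12 cluster that are in the embryo table, in map order with spacing not to scale, members in red and other serpins in grey. The lowest bars are Serpina4-ps1 and Serpina5 and, further along, Serpina3k, Serpina3m and Serpina3n, with Serpina3b, Serpina3f and Serpina3g between them at -0.35, -0.71 and -0.34.

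Along the cluster the strongly reduced members did not form an unbroken run. Serpina3b, Serpina3f and Serpina3g lie between Serpina5 and Serpina3k, and did not pass the threshold, but all were low, at 0.670 ± 0.0838, 1.21 ± 0.411 and 4.70 ± 1.26 CPM in control livers (SD, n = 5). Of the 9 other clade A serpins tested, 2 fell and 0 rose in edgeR at an adjusted p under 0.05, and their median log2 difference was -0.55. Over all genes 12.8% passed this threshold, 6.81% lower and 5.99% higher. Serpina1e fell from 8121 ± 2105 CPM in controls (SD, n = 5) to 3226 ± 1213 CPM in fusion livers (SD, n = 4), and its log2 fold change was -1.33 (edgeR adjusted p = 0.0113). Its change was -0.72 in the library set of fusion 8 and 9 and -1.76 in the other. Serpina12, which encodes vaspin, fell from 2.65 ± 1.12 CPM in controls (SD, n = 5) to 0.558 ± 0.332 CPM in fusion livers (SD, n = 4), and its log2 fold change was -2.37 (edgeR adjusted p = 0.0120). It lies next to Serpina4-ps1, and its changes were -2.33 and -2.69 in the library sets. Its lowest library held only 7 counts.

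The genes that flank the cluster were counted in the same way. Of 10 non-serpin neighbours tested, only Asb2, a subunit of a ubiquitin ligase, passed the threshold, and it rose from 5.52 ± 0.973 CPM in controls (SD, n = 5) to 11.4 ± 2.20 CPM in fusion livers (SD, n = 4; edgeR adjusted p = 0.00348). Their median log2 difference was 0.04, against -0.01 over all genes.

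Promoter sequence was matched for 5 of the 10 members (Serpina3n, Serpina5, Serpina11, Serpina1d and Serpina7) in the RefSeq promoters of build GRCm38.p6. Each window runs from 250 bases before to 50 after an annotated start. The motifs were searched on both strands. The cAMP response element was TGACGTCA, or TGACG in its short form. The HNF1 motif was GTTAAT, the FOXA motif was TGTTTAC or otherwise TATTTAC, and the TATA box was TATAAA. The C/EBP motif was TTGCNNAA, the STAT motif was TTCNNNGAA and the HNF4 motif was CAAAGTCCA. TGACG is part of TGACGTCA, so a match of the longer form is also one of the shorter. Among 32851 promoters, 1.79% hold TGACGTCA, 20.8% TGACG, 7.10% GTTAAT, 10.8% TTGCNNAA, 8.30% TTCNNNGAA, 6.54% a FOXA motif, 0.475% CAAAGTCCA and 13.6% TATAAA. A pair of strongly reduced members and Serpina1d, whose level overlapped between the groups, are shown. The lengths differ, with 250 bases before the start for Serpina5 and 150 for Serpina3n and Serpina1d. The match in Serpina5 lies outside the length shown for the others. Capitals mark matches.
Serpina5, chr12:104100863-104101112, plus strand: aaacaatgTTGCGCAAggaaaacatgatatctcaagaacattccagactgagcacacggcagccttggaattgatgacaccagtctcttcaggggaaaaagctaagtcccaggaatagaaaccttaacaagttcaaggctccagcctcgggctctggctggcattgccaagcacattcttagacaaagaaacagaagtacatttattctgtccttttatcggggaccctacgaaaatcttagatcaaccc
Serpina3n, chr12:104406558-104406707, plus strand: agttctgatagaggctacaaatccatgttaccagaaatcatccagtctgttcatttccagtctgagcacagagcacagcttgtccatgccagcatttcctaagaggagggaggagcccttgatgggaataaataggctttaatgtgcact
Serpina1d, chr12:103773634-103773783, minus strand: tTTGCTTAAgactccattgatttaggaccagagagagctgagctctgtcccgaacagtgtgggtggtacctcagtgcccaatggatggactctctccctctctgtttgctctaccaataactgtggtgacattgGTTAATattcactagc
In Serpina5 the C/EBP letters lie at -242 to -235 from the start, and in Serpina1d at -149 to -142, with the HNF1 letters at -16 to -11. The whole Serpina3n window holds none of the motifs. Serpina11 and Serpina7 each have a pair of windows, from different annotated starts. Both Serpina11 windows hold CGTCA, the reverse complement of TGACG, at -57 to -53 or -71 to -67, and a STAT match at -51 to -43 or -65 to -57. Both Serpina7 windows hold the HNF1 letters at -57 to -52 or -74 to -69, a C/EBP match at -30 to -23 or -47 to -40 and TATAAA at -10 to -5 or -27 to -22. These are matches of letters in a window, not sites, and binding was not measured.

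Because the Serpina members are liver secretory genes, lists of other such genes were described in the same contrast. Each list is given by its count past the threshold in edgeR and its median log2 difference, beside the median of -0.01 over all genes and the 6.81% of all genes that were called lower and 5.99% called higher.

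Among serpins of other clades, 2 of 12 fell and 0 rose, with a median of -0.11. Serpinf1, pigment epithelium-derived factor, fell from 778 ± 66.1 (SD, n = 5) to 499 ± 66.9 CPM (SD, n = 4; edgeR adjusted p = 0.0132). Serpinf2, alpha-2-antiplasmin, went from 2634 ± 924 (SD, n = 5) to 1362 ± 430 CPM (SD, n = 4; edgeR adjusted p = 0.0497) with overlapping groups, and it lost this call in 9 of 14 alternatives, among them those without control 1, 2 or 3 or fusion 6, 7 or 8. Antithrombin, Serpinc1, averaged 951 ± 178 CPM in controls (SD, n = 5) and 863 ± 111 CPM in fusion livers (SD, n = 4), and heparin cofactor II, Serpind1, averaged 281 ± 49.7 and 266 ± 47.2 CPM. Neither passed the threshold. These 2 serpins were named after their values were seen.

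Among other plasma protease inhibitors, 7 of 19 fell and 0 rose, with a median of -0.38. Mug1, a murinoglobulin that traps proteases, fell from 1.73 ± 0.773 (SD, n = 5) to 0.192 ± 0.0773 CPM (SD, n = 4; edgeR adjusted p = 0.00198). Hrg, histidine-rich glycoprotein, fell from 191 ± 51.7 (SD, n = 5) to 41.8 ± 23.4 CPM (SD, n = 4; edgeR adjusted p = 0.00211), and Itih4 from 1399 ± 122 (SD, n = 5) to 660 ± 171 CPM (SD, n = 4; edgeR adjusted p = 0.00372). Mug1 came closest to the 5 strongly reduced members, with a log2 fold change of -3.29, but at a far lower level than 4 of them. Its fusion mean lay near the floor of 3 counts, which is 0.0658 to 0.222 CPM in the fusion libraries. The size of its change is thus uncertain.

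Acute-phase proteins moved in both directions: 5 of 14 fell and 1 rose, with a median of -0.81. DESeq2 called 8 of them lower, and the library set as a covariate 9. Cp, the copper carrier ceruloplasmin, fell from 246 ± 64.5 (SD, n = 5) to 39.5 ± 27.6 CPM (SD, n = 4; edgeR adjusted p = 0.00216), and Crp, C-reactive protein, from 356 ± 78.1 (SD, n = 5) to 149 ± 42.0 CPM (SD, n = 4; edgeR adjusted p = 0.00406). Hpx, the haem carrier hemopexin, rose from 750 ± 113 CPM in controls (SD, n = 5) to 1745 ± 383 CPM in fusion livers (SD, n = 4; edgeR adjusted p = 0.00216). Of 7 carriers 1 fell and 1 rose, with a median of -0.26. Gc, the vitamin D-binding protein, fell by 1.23 and Afp, alpha-fetoprotein, rose by 0.86 on the log2 scale (edgeR adjusted p = 0.00281 and 0.0178).

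Among the plasma and neutrophil proteases and their cofactors, 4 of 18 fell and 0 rose, with a median of -0.34. Beside Proz these included Hgfac, the activator of hepatocyte growth factor, with a log2 fold change of -0.73 (edgeR adjusted p = 0.0142). Klkb1, plasma prekallikrein, had one of -0.72 (edgeR adjusted p = 0.0182), and it lost its call without fusion 7 (adjusted p = 0.0610). Proc, protein C, whose activated form Serpina5 blocks, had one of -0.73 (edgeR adjusted p = 0.0244) and lost its call in 5 of 14 alternatives. These were sex as a covariate and the fits without control 3, control 5, fusion 7 or fusion 8. Only 2 of the list were called lower without fusion 7, while DESeq2 called 7 and the library set as a covariate 9.

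Of 17 regulators of liver genes, 2 rose and 2 fell, with a median of -0.12. Ppargc1a, a coactivator of fasting genes, rose from 8.19 ± 0.999 CPM in controls (SD, n = 5) to 61.7 ± 16.3 CPM in fusion livers (SD, n = 4; edgeR adjusted p = 8.45e-06). Crem, a cAMP-responsive transcription factor gene, rose from 5.21 ± 0.671 CPM in controls (SD, n = 5) to 28.0 ± 6.72 CPM in fusion livers (SD, n = 4; edgeR adjusted p = 2.83e-05). Foxa2, a hepatic forkhead factor, went from 35.1 ± 5.68 (SD, n = 5) to 20.2 ± 5.81 CPM (SD, n = 4; edgeR adjusted p = 0.0189), and this call was lost without fusion 6 or fusion 7. Cebpa, a C/EBP factor of hepatocytes, had a log2 fold change of -0.65 (edgeR adjusted p = 0.0303) and lost its call in 6 of 14 alternatives. The count of regulators that fell was 0 without fusion 6, and 1 with sex as a covariate and without control 3, 4 or 5 or fusion 7 or 8. With the library set as a covariate, 4 were called lower and 6 higher. Within the library set of fusion 8 and 9, 27 of the 28 called genes of these lists could be fitted (Mug1 could not) and all 27 kept their direction, as did all 28 in the other set. The genes were called on these same livers, so this agreement is largely given by the choice and is no separate support.

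**Figure D3:**
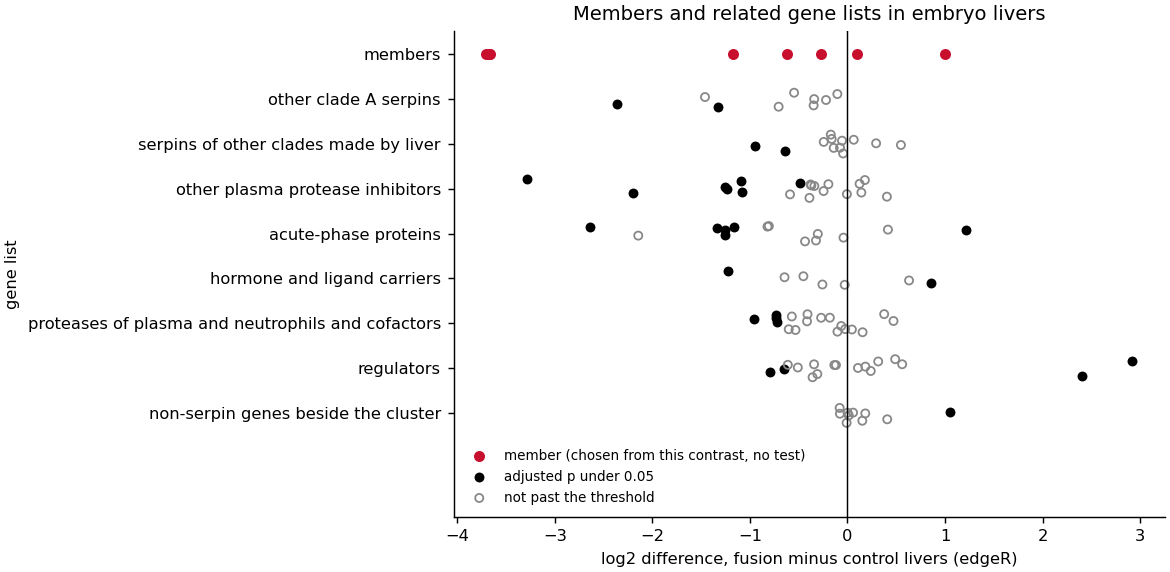
Log2 difference (fusion minus control, edgeR) of the 10 members in red and of the genes of 8 lists, filled where the adjusted p was under 0.05 and open where it was not. The 5 strongly reduced members overlap between -3.71 and -3.67, and of the listed genes Mug1 at -3.29 lies closest to them. The mean of Mug1 in fusion livers was near the floor of 3 counts.

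The non-member genes most like each member were found by the root mean square difference of log2(CPM + 1) profiles, each centred on its mean, over the 9 livers, among the 8292 genes whose mean reached 10 CPM. This measure includes the contrast that chose the members and is given as a description. For Serpina3m the nearest of them were Slco1b2, a hepatic uptake transporter (0.455), Akr1c6, a hydroxysteroid dehydrogenase (0.466), the cytochromes P450 Cyp2e1 (0.627) and Cyp2c70 (0.642), and Cp (0.678). Slco1b2 was at 40.2, 62.2, 86.4, 90.4 and 86.1 CPM in control 1 to 5 and at 3.63, 5.70, 6.05 and 26.9 CPM in fusion 6 to 9, so it shared the raised value of fusion 9. Cyp2e1 was also the nearest of them to Serpina3k (0.336) and to Serpina4-ps1 (0.547). For Serpina3m and Serpina4-ps1 the member Serpina3k lay nearer than any of these genes, at 0.410 and 0.422. The nearest was Cyp4a10 for Serpina3n (0.559) and the water channel gene Aqp8 for Serpina5 (0.152). The 1 CPM added to each value shrinks the difference of a low gene such as Serpina5. Without it the pair was less alike, with fitted log2 differences of -2.29 for Aqp8 and -3.68 for Serpina5. For the members with small differences the nearest were Serpinf1 for Serpina10 (0.0829), the complement gene C4b for Serpina11 (0.123) and Bdh1 for Serpina1d (0.0804). They were Plk4 for Serpina6 (0.344) and Lpar6 for Serpina7 (0.236).

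The tumour experiment was not used to choose the members, and it asks whether palbociclib alters their levels in FL8 tumours. No difference was detected for any member. Of the 9 members measured, 8 passed the filter of a mean of 1 CPM, and 0 of them passed the threshold in limma, as did 0 of all 12829 genes tested. At an unadjusted p under 0.05 there were 0 members and 4.57% of all genes. DESeq2 on recovered reads called 8 genes and edgeR 0, none of them a member. In 7 of the 8 the log2 difference (palbociclib minus vehicle) was above 0, with a member median of 0.36, while it was above 0 for 68.8% of all genes, with a median of 0.14. The groups overlapped for all 8.

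Serpina3n was at 551, 2309, 1694, 2100 and 983 CPM in vehicle 1 to 5. It was at 1503, 1158, 1689, 1917 and 1538 CPM in palbociclib 1 to 5. The palbociclib tumours lay within the vehicle range. The log2 difference was 0.19, with a 95% interval of -0.60 to 0.98 (limma adjusted p = 0.966). It was -0.13 without vehicle 1, -0.022 in edgeR and -0.028 in DESeq2 on recovered reads, so its sign was not stable.

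Serpina3m was at 117, 333, 328, 372 and 255 CPM in vehicle 1 to 5 and at 339, 390, 445, 415 and 306 CPM in palbociclib 1 to 5. Vehicle 1 was the lowest, and the other values of the groups overlapped. The log2 difference was 0.52, with a 95% interval of -0.11 to 1.15 (limma adjusted p = 0.953), and it was 0.24 without vehicle 1. Serpina3k was at 103, 334, 360, 617 and 465 CPM in vehicle 1 to 5 and at 630, 450, 710, 641 and 398 CPM in palbociclib 1 to 5. Its log2 difference was 0.77, with a wide interval, from -0.04 to 1.58 (limma adjusted p = 0.953), and it was 0.36 without vehicle 1.

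Serpina6 was at 49.0, 181, 144, 79.1 and 158 CPM in vehicle 1 to 5 and at 139, 237, 133, 241 and 168 CPM in palbociclib 1 to 5. The log2 difference was 0.69, with a 95% interval of -0.02 to 1.40 (limma adjusted p = 0.953), and without vehicle 1 it was 0.40. Both groups spread widely for this carrier. Serpina10 was at 32.8, 145, 124, 156 and 156 CPM in vehicle 1 to 5 and at 141, 156, 164, 171 and 178 CPM in palbociclib 1 to 5. Its log2 difference of 0.58 (95% interval -0.17 to 1.33; limma adjusted p = 0.953) was 0.16 without vehicle 1, whose value lay far below the rest.

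Serpina11 was at 30.3, 86.4, 73.8, 52.2 and 84.9 CPM in vehicle 1 to 5 and at 56.2, 50.2, 53.6, 66.9 and 59.5 CPM in palbociclib 1 to 5. It was the only tested member with a log2 difference below 0, -0.10 (95% interval -0.69 to 0.49; limma adjusted p = 0.973). Serpina1d was at 290, 611, 516, 603 and 486 CPM in vehicle 1 to 5 and at 469, 687, 575, 652 and 419 CPM in palbociclib 1 to 5. Its log2 difference was 0.18 (95% interval -0.39 to 0.75; limma adjusted p = 0.961). Apart from vehicle 1 its values lay within a narrow band.

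Serpina7 varied most among the tumours. It was at 46.0, 100.2, 130, 808 and 286 CPM in vehicle 1 to 5 and at 310, 109, 119, 233 and 180 CPM in palbociclib 1 to 5. Its highest value was 17.6 times its lowest, against 2.36 to 6.89 times in the other 7 tested members. The log2 difference was 0.05, with a 95% interval of -1.12 to 1.23 (limma adjusted p = 0.992), and it was -0.58 in edgeR and -0.59 in DESeq2 on recovered reads. The intervals of all 8 members include 0, and their upper ends lay between 0.49 and 1.58.

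Serpina4-ps1 was nearly silent. It was at 0, 1.23, 0.603, 0 and 4.74 CPM in vehicle 1 to 5 and at 0.342, 0, 0, 0 and 0 CPM in palbociclib 1 to 5. In 6 of the 10 tumours it had 0 reads, which allows up to 0.0695 to 0.121 CPM in those libraries by the floor of 3 reads. The 4.74 CPM of vehicle 5 were 14 reads. It did not pass the filter and was not tested.

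**Figure D4:**
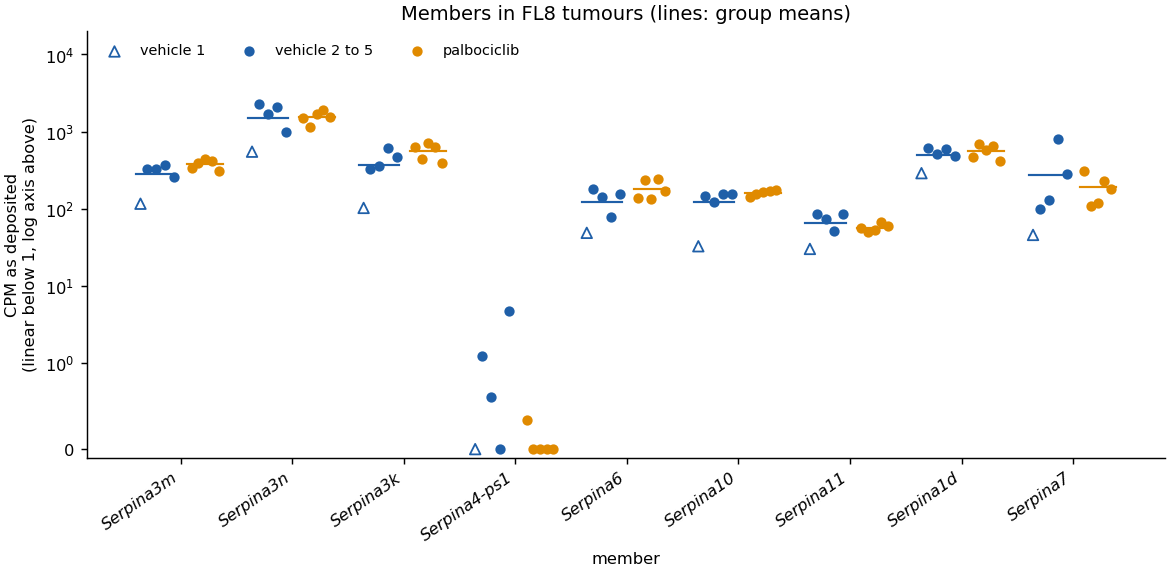
Level of the 9 members of the tumour tables in every FL8 tumour, as deposited CPM on an axis that is linear below 1 and logarithmic above, with vehicle 1 as an open triangle, the other vehicle tumours in blue, palbociclib tumours in orange and lines at the group means (none for Serpina4-ps1). The treatment groups overlap for every member, vehicle 1 is low throughout and Serpina4-ps1 is at 0 in 6 tumours.

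Vehicle 1 was the lowest of the 10 tumours for all 8 tested members. Its mitochondrial reads take up part of the CPM total. With mitochondrial genes left out of the total it was at 1032 CPM of Serpina3n, 219 of Serpina3m, 193 of Serpina3k and 61.5 CPM of Serpina10. The last was still under the 126 to 188 CPM of the other tumours. On this scale it remained the lowest tumour for Serpina3m, Serpina3k, Serpina10 and Serpina7, but not for the other 4. For Serpina3n vehicle 5 was lower (1010.5 CPM), and for Serpina6 vehicle 4 (82.5 CPM, against 91.7 in vehicle 1). For Serpina11 palbociclib 2 had the lowest value (52.4 CPM, against 56.8), and for Serpina1d palbociclib 5 did (441 CPM, against 544). The summed hepatocyte markers ranged from 33199 to 94724 CPM in vehicle and from 70197 to 104084 CPM in palbociclib tumours. The erythroid markers present summed to 1297 to 96670 CPM in vehicle and 1730 to 8457 CPM in palbociclib tumours. For the macrophage markers present the sums were 6.09 to 348 and 19.7 to 60.4 CPM. Their part in the member values was not tested.

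The trio had another composition in tumours than in fetal livers. The sum of Serpina3k, Serpina3m and Serpina3n was 771 to 3089 CPM, or 1443 to 3221 CPM without mitochondrial genes, and Serpina3n made up 57.7% to 77.6% of it. Serpina3k made up 11.2% to 27.3%. In fetal livers, control or fusion, Serpina3k was the largest of the 3 by mean share, at 57.1% and 49.0%. The tables were made and scaled separately and differ in tissue, library preparation and counting, so no test was made between them.

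Ranks within each library can be set beside these levels. Serpina3n lay at the 99.2 to 99.8 percentile of the genes of each tumour, against 74.1 to 94.0 in control and 15.1 to 53.3 in fusion livers. Serpina3m lay at 96.6 to 98.5 in tumours and 4.87 to 42.2 in fusion livers, and Serpina3k at 96.0 to 99.1 and 17.8 to 76.5. The low rank of the Serpina3 genes in fusion livers was thus not found in FL8 tumours. Serpina4-ps1, at the 83.4 to 87.6 percentile in control livers, lay at 3.20 to 46.3 in tumours. The percentiles count the genes of each table, and the tables hold different genes.

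**Figure D5:**
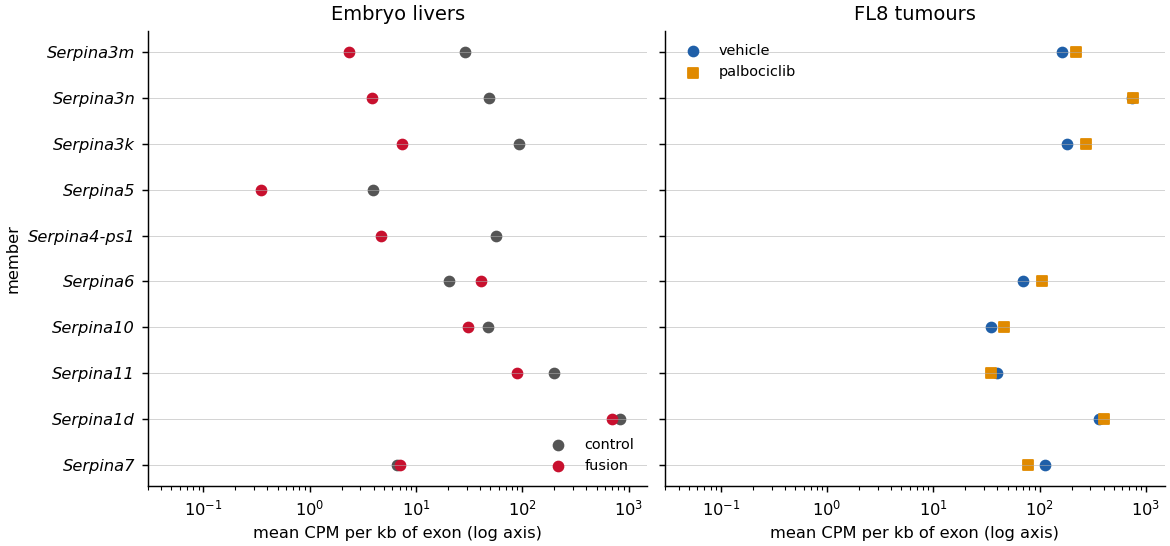
Mean level of each member per kilobase of exon, in CPM per kb on a log axis, in embryo livers (left) and FL8 tumours (right), without error bars. Serpina1d is the highest member in embryo livers and Serpina3n in tumours, Serpina5 has no tumour value and Serpina4-ps1, at 0 in most tumours, is left out on the right.

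Per kilobase of exon the order of the means in control livers was Serpina1d (836 CPM per kb), Serpina11 (200.2), Serpina3k (93.3), Serpina4-ps1 (57.2), Serpina3n (48.5), Serpina10 (47.2), Serpina3m (29.0), Serpina6 (20.5), Serpina7 (6.62) and Serpina5 (3.98). Neighbours from Serpina4-ps1 to Serpina10 did not differ beyond their spread. In fusion livers Serpina1d (692) still led, followed by Serpina11 (88.6), Serpina6 (40.9) and Serpina10 (30.7). Next came Serpina3k (7.43), Serpina7 (7.07), Serpina4-ps1 (4.66), Serpina3n (3.82), Serpina3m (2.36) and Serpina5 (0.350), and the values of single livers overlapped between the 5 genes from Serpina3k to Serpina3m. In vehicle tumours Serpina3n led with 740 CPM per kb, before Serpina1d with 359. Then came Serpina3k (183), Serpina3m (163), Serpina7 (112) and Serpina6 (69.4), whose ranges overlapped, and Serpina11 (40.0) and Serpina10 (35.1).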

How the data were processed

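Embryo values are raw counts per gene symbol that the authors deposited, made with STAR 2.5.1b on build mm10, per the submitters' processing notes. Tumour values are CPM that the authors deposited per Ensembl gene ID, made on mm10 with cutadapt 2.10, HISAT2 and featureCounts, per the same notes, which name DESeq2 for both experiments and R 4.1.2 for the tumours. All CPM values were whole multiples of the value of 1 read (100% whole), so reads were recovered for alternatives. Whether counting used strand, and how reads of similar genes were treated, is not given in the sources used here. The 9 rescaled columns of the embryo table were not used, and its genes have at least 47 counts in sum. The labels name methocel as vehicle and the series text PBS; the labels were followed.

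Embryo counts were fitted with edgeR 4.0.16 (quasi-likelihood, TMM factors, filterByExpr) under R 4.3.3. Tumours were fitted with limma 3.58.1 on log2(CPM + 1), after removal of genes whose mean was under 1 CPM, a scale that understates changes of low genes. P-values were adjusted by Benjamini-Hochberg over all genes tested, with a threshold of 0.05. For members the embryo difference carries no test, since that contrast chose them. On simulated data with known changes the embryo fit recovered 200 of 200 genes with 4 false calls among 13298 genes. The tumour fit recovered 198 of 200 with 6 among 12803. The median fitted log2 differences of the changed genes were large, at 2.01 and -2.06 in the embryo fit. In the tumour fit they were 2.00 and -1.80. Recovery of smaller differences was not tested. The simulated spread was the same for all genes of an experiment. It held neither the library sets nor the mitochondrial share of vehicle 1, so recovery in the real samples may be lower. The floor of 3 counts covers counting error only.

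The members and gene lists were chosen with earlier results of these data known. All members are named, with up to 3 genes of each list with the smallest p past the threshold and the genes with the nearest profile. Proc and Cebpa passed the threshold with a larger p than these 3 and are named in addition. So are Serpinc1, Serpind1 and Ttr, which did not pass it. GENCODE M21 gave symbols for 17469 of the 17606 tumour IDs and exon lengths, and coding sequences were aligned with MAFFT 7.526. Alternatives were other size factors, DESeq2 1.42.0, other filters and a pseudocount of 0.1, covariates for library set and sex, totals without mitochondrial genes, a replicate block and each library left out.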

Additional observations from a re-analysis of the deposited data

Results flagged for a closer look

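Of 38 groups of member values screened for a library far from the rest of its group, 8 held such a library. Chance gives about 1 in 20 only for normally distributed values, and the screened CPM values are skewed. A group in which a single tumour has reads, such as Serpina4-ps1 in palbociclib tumours, is always flagged. The count is thus not read as an excess over chance. Values of related members in the same library are not independent.

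Fusion 9 was far above the other fusion livers for Serpina3m, at 11.02 CPM against 0.646 to 2.37. It was so too for Serpina3k, at 45.0 CPM against 2.67 to 8.78, and for Serpina4-ps1, at 18.2 CPM against 1.07 to 3.44. For Serpina3m control 3 stood above the other controls, at 82.5 CPM against 36.5 to 46.2. For Serpina6 fusion 6 was far above the other fusion livers, at 113 CPM against 55.6 to 62.3.

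Among the tumours vehicle 1 was far below the other vehicle tumours for Serpina10, at 32.8 CPM against 124 to 156. Serpina4-ps1 was at 4.74 CPM in vehicle 5, while vehicle 1 to 4 had 0 to 1.23 CPM, and at 0.342 CPM in palbociclib 1 against 0 in the other palbociclib tumours.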

How the results depend on the processing

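The embryo comparison called 1704 genes. The library set as a covariate gave 4345, and leaving out single libraries gave 969 to 1581 genes, the lowest being 969 without control 3, 987 without fusion 8 and 1107 without fusion 7. The tumour comparison called 0 genes, 8 in DESeq2 and 0 with any tumour left out, and 0 members in every fit. With the replicate block of tumour numbers it called 0 genes. Correlations of equally numbered tumours were -0.32 to 0.00, so no pairing by number was seen in expression. With 5 tumours in each group this cannot exclude a pairing. Of 28 listed embryo genes past the threshold 21 kept it in all 14 alternatives. With the library set as a covariate the lists gave more genes called lower: 9 acute-phase proteins against 5, 9 proteases against 4, 4 regulators against 2, 4 other clade A serpins against 2 and 3 carriers against 1, while regulators called higher went from 2 to 6 and carriers from 1 to 2. In DESeq2 the lower calls were 8 acute-phase proteins, 7 proteases and 3 carriers. Without control 2, 2 carriers were lower.

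In embryos the sign of Serpina7 was reversed within the set of control 3 to 5 and fusion 6 and 7 (-0.034) and without fusion 6 (-0.092, in a range up to 0.31 over single libraries left out); no other member changed sign. In tumours Serpina3n was -0.022 in edgeR, -0.028 in DESeq2, -0.13 without vehicle 1 (up to 0.39 with other tumours left out) and -0.39 without vehicle 1 and 5 together, a setting chosen after seeing the data. Serpina1d was -0.0015 and -0.062 in the last pair of settings, and up to 0.28 with other tumours left out. Serpina11 was 0.020 without vehicle 2 and 0.01 without vehicle 5, and down to -0.35 without vehicle 1. Serpina7 was -0.091 without mitochondrial genes, -0.58 in edgeR, -0.59 in DESeq2, -0.41 without vehicle 1 and -0.32 without vehicle 1 and 5, and between -0.41 and 0.61 with single tumours left out. It was -0.13 without vehicle 2, -0.04 without vehicle 3, -0.15 without palbociclib 1 and -0.05 without palbociclib 4. The cause of these changes was not tested.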

Other observations

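Serpina12, the vaspin gene beside Serpina4-ps1, was at 232 to 624 CPM in the 10 tumours, while it was at 0.146 to 4.04 CPM in the 9 embryo livers. Serpina1e made up 5.70% to 11.01% of the Serpina1a to Serpina1e sum in tumours, where Serpina1b made up 53.6% to 60.2%. The split among these copies depends on how reads were counted. The tables were scaled separately and these values were not tested.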
